A study of Mus musculus with 8 samples.

Results

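Tmem176a and Tmem176b are a pair of neighbouring mouse genes that encode related membrane proteins. They were taken by their symbols as 2 of the 31053 gene rows of 8 droplet single-cell RNA libraries made from mouse colon (its lamina propria, the tissue beneath the epithelium). All mice were C57BL/6 animals of 10 to 12 weeks, kept free of specific pathogens. The 4 groups held 2 libraries each, which the series describes as biological replicates: wildtype mice on plain water for 10 days (WT_untreated), mutant mice on plain water for 10 days (S203AKI_untreated), and wildtype and mutant mice given 2% dextran sulfate sodium (DSS), a compound that injures the colonic epithelium, for 7 days followed by 3 days of plain water (WT_DSS and S203AKI_DSS). All were taken on day 10. The mutant is named here as the sample titles spell it. Th17 cells are helper T cells that make interleukin-17, and type 3 innate lymphoid cells (ILC3) are their counterparts without an antigen receptor. The suspension was enriched with a kit for CD4+ T cells before loading, so shares of cell types reflect that step as well as the tissue.

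The proteins TMEM176A and TMEM176B cross membranes of the cell's interior several times, resemble the MS4A family (to which the B cell protein CD20 belongs), and have been described as cation channels of endosomes and related compartments. They are known from dendritic cells, macrophages, Th17 cells and ILC3. TMEM176B has been linked to antigen presentation on MHC class II and to restraint of the NLRP3 inflammasome, the complex that activates interleukin-1β.

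The genes lie head to head on mouse chromosome 6 (GRCm38, GENCODE M21). Tmem176b (ENSMUSG00000029810) runs on the minus strand from 48833818 to 48841496. Tmem176a (ENSMUSG00000023367) runs on the plus strand from 48840919 to 48847071. The annotated genes overlap by 578 bases at their 5′ ends, and their 3′ ends, where the reads of a 3′ library fall, are 13254 bases apart. The start regions are shown because the pair shares them. RefSeq promoter windows (GRCm38.p6, 250 bases before to 50 after a start, 3 for Tmem176b and 2 for Tmem176a) were searched on both strands for short motifs. The letters GGAAGT, the core of many ETS factor sites, stood in 3 of the 5 windows and in 23.8% of 32851 windows of all genes. It occurred at 2 positions, each shown on the plus strand with the 6 matching bases, or their complement, in capitals.
chr6:48841426-48841455: agctgcctgccaGGAAGTgttgaggtctgc
chr6:48841553-48841582: tccctgctgcacACTTCCccggtcccagag
The first match lies in the overlap of the pair, in an exon of 1 of 12 annotated Tmem176b transcripts and in an intron of 1 of 7 Tmem176a transcripts. The second lies in noncoding exon sequence of 4 of the 7 Tmem176a transcripts. TGACTCA, an AP-1 site, was in 0 of the 5 windows (5.20% of all windows), as was TATAAA, the TATA box (13.6%). Such a match is a run of letters and not a measure of binding.

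The tables held 34497509 to 46960005 UMIs (unique molecular identifiers, 1 per captured RNA molecule) per library, 162289 of them from Tmem176a and 159318 from Tmem176b over all 8. Of 100673 barcodes, 96721 passed limits on detected genes and mitochondrial reads, 10340 to 15370 per library. Library pairs shared 21 to 64 barcode sequences, at most 0.578% of the smaller library. Barcodes were clustered and 18 classes were named from marker genes, each written here as "-like". 17414 barcodes stayed unnamed. Cd3e, a T cell receptor subunit, stood at 100.1 CPM in ILC3-like barcodes against 294 and 355 CPM in the clusters of the Th17-like class. Names were rebuilt from the counts and can differ from the authors' own.

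Both genes were most abundant outside the lymphocytes that the enrichment was meant to keep. Levels below are CPM, the gene's share of all UMIs scaled as usual, of the summed barcodes of a class in 1 library. Tmem176a was highest in Fibroblast-like barcodes, at a mean of 1399 ± 237 CPM (SD, n = 8 libraries), and in Muscle or pericyte-like barcodes, at 1357 ± 506 CPM. The order of that pair turned with treatment: Fibroblast-like barcodes were the higher in all 4 untreated libraries (means of 1300.0 and 930.8 CPM) and Muscle or pericyte-like barcodes in all 4 DSS libraries (1782 and 1497 CPM). ILC3-like barcodes followed at 779 ± 163 CPM, above Macrophage-like barcodes in 7 of 8 libraries. Macrophage-like barcodes held 549 ± 260 CPM, Endothelium-like 423 ± 82.4, Th17-like 378 ± 87.4, Plasma cell-like 323 ± 45.9 and Dendritic-like 216 ± 37.6 CPM. The place of the Macrophage-like class also turned with treatment. Its mean of 773 CPM in untreated libraries lay above those of the Endothelium-like (439.5), Th17-like (415) and Plasma cell-like (287) classes, and its mean of 325 CPM after DSS lay below theirs (407, 342 and 359 CPM). ILC2-like and Th1-like barcodes (110 ± 70.1 and 85.9 ± 37.8 CPM) overlapped each other.

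The other T and B cell classes sat far lower. Treg-like barcodes, the regulatory T cells, held 41.8 ± 7.97 CPM of Tmem176a, CD8 T-like 24.9 ± 13, B cell-like 20.6 ± 9.84, Follicular helper T-like 16.9 ± 5.49 and Naive T-like 11.1 ± 5.32 CPM. These low levels moved with the processing: B cell-like to 8.79 CPM without the highest doublet scores, and CD8 T-like to 40.1 and Naive T-like to 18.0 CPM with coarser clustering, so their order is not read. Tmem176b was 1493 ± 563 CPM in Muscle or pericyte-like, 1374 ± 214 in Fibroblast-like, 598 ± 109 in ILC3-like and 568 ± 221 in Macrophage-like barcodes. It was 286 ± 46.1 CPM in Th17-like and down to 12.4 ± 5.13 CPM in Naive T-like barcodes. Its order turned with treatment too. Untreated means were 1275 CPM in Fibroblast-like and 1008 in Muscle or pericyte-like barcodes, against 1473 and 1977 after DSS. Those of Macrophage-like and ILC3-like barcodes were 756.9 and 631.9 CPM untreated, against 378.6 and 564.5 after DSS. These levels describe classes built from the same counts and carry no test. Glia-like barcodes (519 ± 212 CPM of Tmem176a, n = 6 libraries with at least 20 barcodes), Squamous epithelium-like (250.5 ± 44.2, n = 5) and Neutrophil-like barcodes (117 ± 113, n = 4) were scarce.

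**Figure D1:**
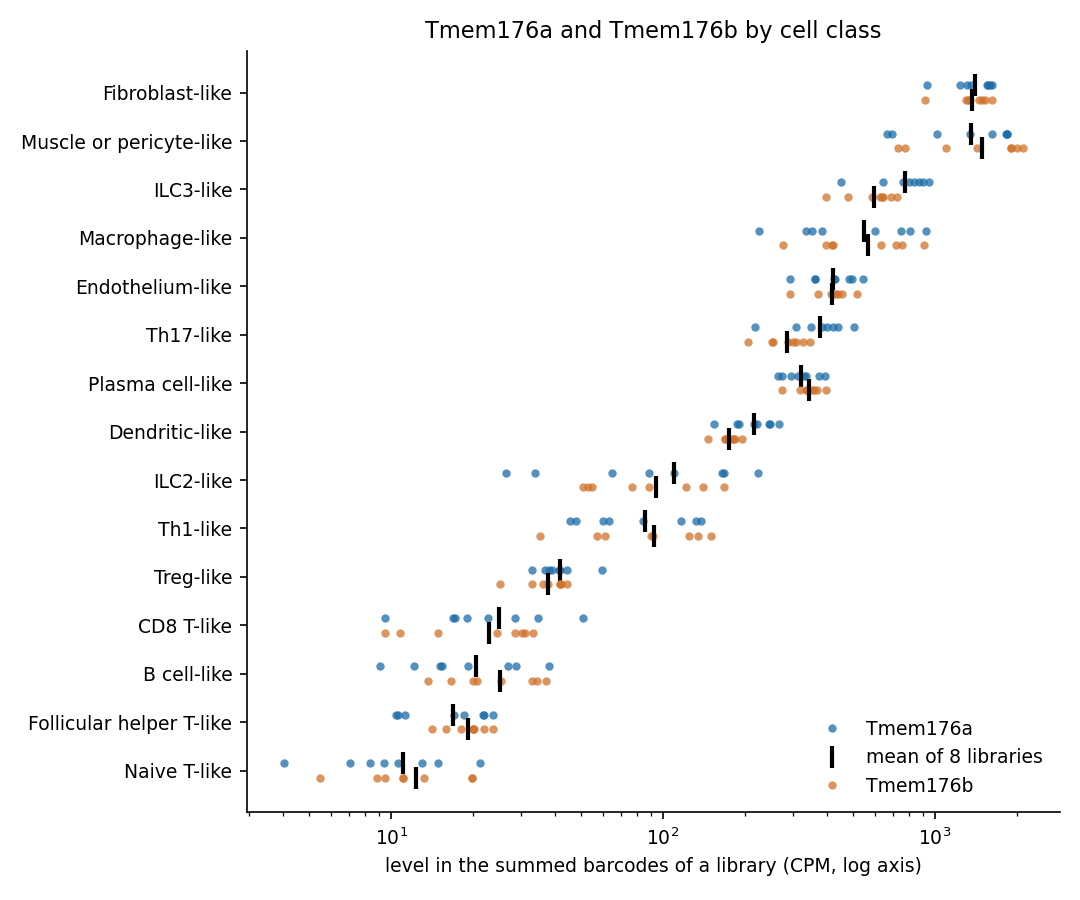
Level of Tmem176a and Tmem176b (horizontal axis, CPM, log scale) in the 15 classes with at least 20 barcodes in every library. Each point is 1 library and each black bar the mean of 8 libraries. The Tmem176a points run from 4.03 CPM in a Naive T-like library to over 1000 in most Fibroblast-like libraries, and the marks of the 2 genes lie close together in each class.

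The Fibroblast-like minority of barcodes held a large share of the signal. Fibroblast-like barcodes were 10.6% ± 5.51 of the barcodes of a library and held 52.1% ± 11.9 of its Tmem176a UMIs (SD, n = 8). That share ran from 30.2% to 66.9% by library. Such a share also depends on depth. Median UMIs per barcode were 4725 to 7514 in the Fibroblast-like clusters and 1852 and 1985 in the Th17-like clusters. The part of depth was not tested. Macrophage-like barcodes (8.61% ± 2.12) held 11.7% ± 6.94, and Th17-like barcodes (9.54% ± 5.26) held 5.71% ± 4.56. By treatment, the Macrophage-like share of Tmem176a UMIs was 17.2% ± 5.42 in untreated and 6.32% ± 2.13 in DSS libraries, and the Th17-like share 4.30% ± 2.47 and 7.11% ± 6.10 (n = 4 each). Treg-like barcodes were 7.36% ± 0.834 of the barcodes and held 0.346% ± 0.114 of the Tmem176a UMIs in untreated libraries, and 17.04% ± 2.26 and 1.32% ± 0.425 after DSS. Fibroblast-like barcodes were 14.7% ± 4.01 of the barcodes in untreated and 6.57% ± 3.26 in DSS libraries, with 52.4% ± 4.74 and 51.8% ± 17.6 of the UMIs.

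Single barcodes were compared after thinning each to 1000 UMIs, which left out shallower ones (440 of Th17-like, 30 of ILC3-like, 221 of Naive T-like). At that depth 50.7% ± 6.67 of ILC3-like barcodes held a Tmem176a UMI, against 28.3% ± 5.54 of Th17-like, 36.3% ± 13.2 of Macrophage-like and 63.1% ± 6.00 of Fibroblast-like barcodes. The background, read from classes at the low end, was 1.23% ± 0.455 in Naive T-like and 1.37% ± 0.826 in B cell-like barcodes. For Tmem176b the shares were 44.5% ± 7.53 (ILC3-like), 22.6% ± 3.78 (Th17-like), 38.8% ± 12.0 (Macrophage-like), 64.0% ± 6.24 (Fibroblast-like), 1.02% ± 0.436 (Naive T-like) and 1.78% ± 0.809 (B cell-like). The Macrophage-like shares pool treatments that differed. Of its 7707 thinned barcodes, 7426 held a UMI of H2-Ab1, an MHC class II gene. Among these, Tmem176a was seen in 48.0% in untreated and 25.8% in DSS libraries, and Tmem176b in 49.5% and 29.1%. Both RNAs were seen together in 26.2% of ILC3-like, 8.19% of Th17-like, 17.5% of Macrophage-like and 47.2% of Fibroblast-like barcodes, and in 0.0719% of Naive T-like and 0.143% of B cell-like barcodes. The pair co-occurred within classes as well: among Th17-like barcodes Tmem176b was found in 28.2% of those with Tmem176a and in 20.3% of those without. Among Fibroblast-like barcodes the shares were 74.4% and 46.1%. The classes read as background showed it too, at 7.00% and 1.66% of B cell-like and 5.52% and 0.959% of Naive T-like barcodes. The part of mixed barcodes, or of clusters pooled in a class, was not tested. Shares of Treg-like barcodes (3.67% ± 0.706 and 3.24% ± 0.692) lay above those of Naive T-like barcodes.

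In ILC3-like barcodes the genes went with Il22, the cytokine for which these cells are known. Tmem176a was seen in 57.2% ± 5.29 of barcodes with an Il22 UMI (n = 8 libraries) and in 36.5% ± 14.9 of those without (n = 7 with enough barcodes), higher with Il22 in 7 of 7 libraries. For Tmem176b the shares were 47.6% ± 8.96 and 35.6% ± 8.62, higher in 6 of 7. Barcodes of the class with a Cd3e UMI, a T cell transcript, held Tmem176a in 39.7% ± 12.7 (n = 5) against 53.6% ± 8.14 without (n = 8), higher with Cd3e in 1 of 5 libraries. In Th17-like barcodes of untreated libraries, the share with Tmem176a was 32.8% ± 2.56 with an Il17a UMI and 24.9% ± 3.66 without, higher with Il17a in 4 of 4 libraries. After DSS it was 25.7% ± 7.67 with and 28.04% ± 6.42 without, higher with Il17a in 1 of 4. For Tmem176b the shares were 22.8% ± 3.50 and 22.3% ± 5.75 in untreated libraries, higher with Il17a in 1 of 4, and 23.3% ± 3.21 and 21.7% ± 6.27 after DSS, higher with Il17a in 3 of 4. Barcodes were sorted by all their UMIs and only the share was read at 1000 UMIs, so the sides of a split differ in original depth. Library medians were 2618 to 3568 UMIs with Il22 and 1940 to 2849 without, 4328 to 8748 with Cd3e and 2214 to 2887 without, and up to 2523 with Il17a and up to 2485 without. The splits were not tested, nor was the part of depth or of mixed barcodes in them.

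In Th17-like barcodes, DSS and the mutant were each compared. The levels of Tmem176a were 349 and 384 CPM in the WT_untreated libraries, 422 and 504 in S203AKI_untreated, 401 and 309 in WT_DSS, and 439 and 217 in S203AKI_DSS. Tmem176b stood at 253 and 288, 309 and 348, 301 and 252, and 326 and 206 CPM in the same order. The groups overlapped, and the S203AKI_DSS libraries spanned most of the range. With DSS averaged over genotypes, the log2 change of Tmem176a was -0.32 ± 0.17 (SE, edgeR quasi-likelihood test, Benjamini-Hochberg adjusted p = 0.209) and that of Tmem176b -0.19 ± 0.13 (adjusted p = 0.353), where 14.5% of 8966 genes passed the threshold of 0.05. The 95% intervals ran from -0.65 to 0.01 and from -0.45 to 0.07. The result turned on the S203AKI_DSS libraries: without replicate 1, which supplied 3045 of the 9588 Th17-like barcodes, the changes were -0.63 (adjusted p = 0.00597) and -0.39 (adjusted p = 0.0427), and without replicate 2 they were -0.12 (adjusted p = 0.547) and -0.05 (adjusted p = 0.804). The 8 macrophage markers summed to 100.1 to 281 CPM in the untreated and 179 to 576 CPM in the DSS libraries of this class. Without barcodes that held a macrophage or fibroblast marker UMI, the changes were -0.35 (adjusted p = 0.182) and -0.15 (adjusted p = 0.492). The 5 T cell markers of Th17-like barcodes summed to 2726 to 3233 CPM in untreated libraries and 2021 to 2641 after DSS, and the 8 dendritic cell markers to 3.78 to 8.76 and 10.5 to 17.1 CPM. The part of these sums in the result was not tested.

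Within wildtype mice, the DSS change in Th17-like barcodes was -0.10 ± 0.24 for Tmem176a and -0.03 ± 0.19 for Tmem176b (edgeR adjusted p = 0.883 and 0.970, with 0.0446% of genes called). Within mutant mice it was -0.54 ± 0.24 and -0.35 ± 0.19 (adjusted p = 0.180 and 0.268, with 5.34% called). Without S203AKI_DSS replicate 1 the change within mutant mice was -1.17 and -0.76 (adjusted p = 0.00512 and 0.0297), and without replicate 2 it was -0.15 and -0.08 (adjusted p = 0.711 and 0.837). In each of these fits the mutant DSS arm is 1 library, which is assumed to vary like the libraries of the other groups. The difference of those DSS changes was itself tested, at -0.44 ± 0.34 and -0.33 ± 0.27 (adjusted p = 0.9999 for both, with 0% called). S203AKI against WT gave 0.30 ± 0.24 and 0.24 ± 0.19 in untreated mice and -0.14 ± 0.24 and -0.09 ± 0.19 after DSS, all with edgeR adjusted p of 0.972 or more. Averaged over treatments it gave 0.08 ± 0.17 and 0.08 ± 0.13, with 0.0112% of genes called. In the Th17-like class 0.0335% of genes were called between the genotypes in untreated mice and 0% after DSS.

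In ILC3-like barcodes neither gene passed either comparison. Tmem176a stood at 642 and 951 CPM in WT_untreated, 906 and 839.5 in S203AKI_untreated, 874 and 764 in WT_DSS, and 805.5 and 451 in S203AKI_DSS. Tmem176b stood at 479 and 688, 722 and 639, 585 and 645, and 629 and 398.5 CPM. S203AKI_DSS replicate 2 was the lowest library for both genes, here as in the Th17-like and Macrophage-like classes. DSS against untreated was -0.30 ± 0.17 for Tmem176a (edgeR adjusted p = 0.390) and -0.25 ± 0.16 for Tmem176b (adjusted p = 0.458), with 1.98% of 6013 genes called. S203AKI against WT was -0.11 ± 0.17 and 0.00 ± 0.16, with 95% intervals from -0.44 to 0.23 and from -0.32 to 0.32, where 0% of all genes were called.

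Because both genes were abundant in macrophages and fibroblasts, the lymphoid levels were recomputed without any barcode that held a UMI of 8 macrophage or 6 fibroblast markers. Tmem176a was then 374.5 CPM in Th17-like and 829.9 CPM in ILC3-like barcodes, and Tmem176b 286 and 635 CPM, close to the values of the whole classes. The step keeps barcodes that took up RNA of macrophages or fibroblasts without a marker UMI. It also keeps those with RNA of other classes, such as Muscle or pericyte-like or Plasma cell-like. The part of such RNA in the lymphoid levels was therefore not tested. In Treg-like barcodes neither gene passed after DSS (edgeR, log2 change -0.13 ± 0.14 and 0.07 ± 0.15, adjusted p = 0.549 and 0.780, with 18.4% of genes called). Over all genotype comparisons, 0 of 18 tests of the members passed in edgeR or DESeq2, 0 had an unadjusted p under 0.05, and the lowest adjusted p was 0.972. Averaged over treatments, 0% of all genes were called for genotype in the Treg-like, ILC3-like, Macrophage-like, Dendritic-like and Fibroblast-like classes and 0.0112% in Th17-like barcodes, so the count of members is at the background. The widest of their 95% intervals, that of the difference of DSS changes for Tmem176a in Th17-like barcodes, ran from -1.10 to 0.22.

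The clearest change with DSS was in Macrophage-like barcodes, where both genes fell. Tmem176a stood at 604 and 807.5 CPM in WT_untreated and 929.9 and 751 in S203AKI_untreated, against 354 and 334.5 in WT_DSS and 384 and 226 in S203AKI_DSS. Tmem176b stood at 634 and 759, and 913 and 721 CPM, against 420.2 and 399, and 419 and 276. No DSS library reached an untreated one for either gene. Tmem176a fell by 1.43 ± 0.17 on the log2 scale (SE, edgeR quasi-likelihood test, adjusted p = 0.000833), with a 2.38-fold lower mean CPM, and Tmem176b fell by 1.18 ± 0.15 (adjusted p = 0.000914), with a 2.00-fold lower mean CPM. The folds of mean CPM are without the TMM factors, edgeR's scaling of libraries, and need not equal the log2 changes. DSS moved much of the transcriptome of this class: 24.8% of 10359 genes were called. S203AKI against WT gave 0.02 ± 0.17 and -0.02 ± 0.15 in Macrophage-like barcodes (with 0% of genes called).

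**Figure D2:**
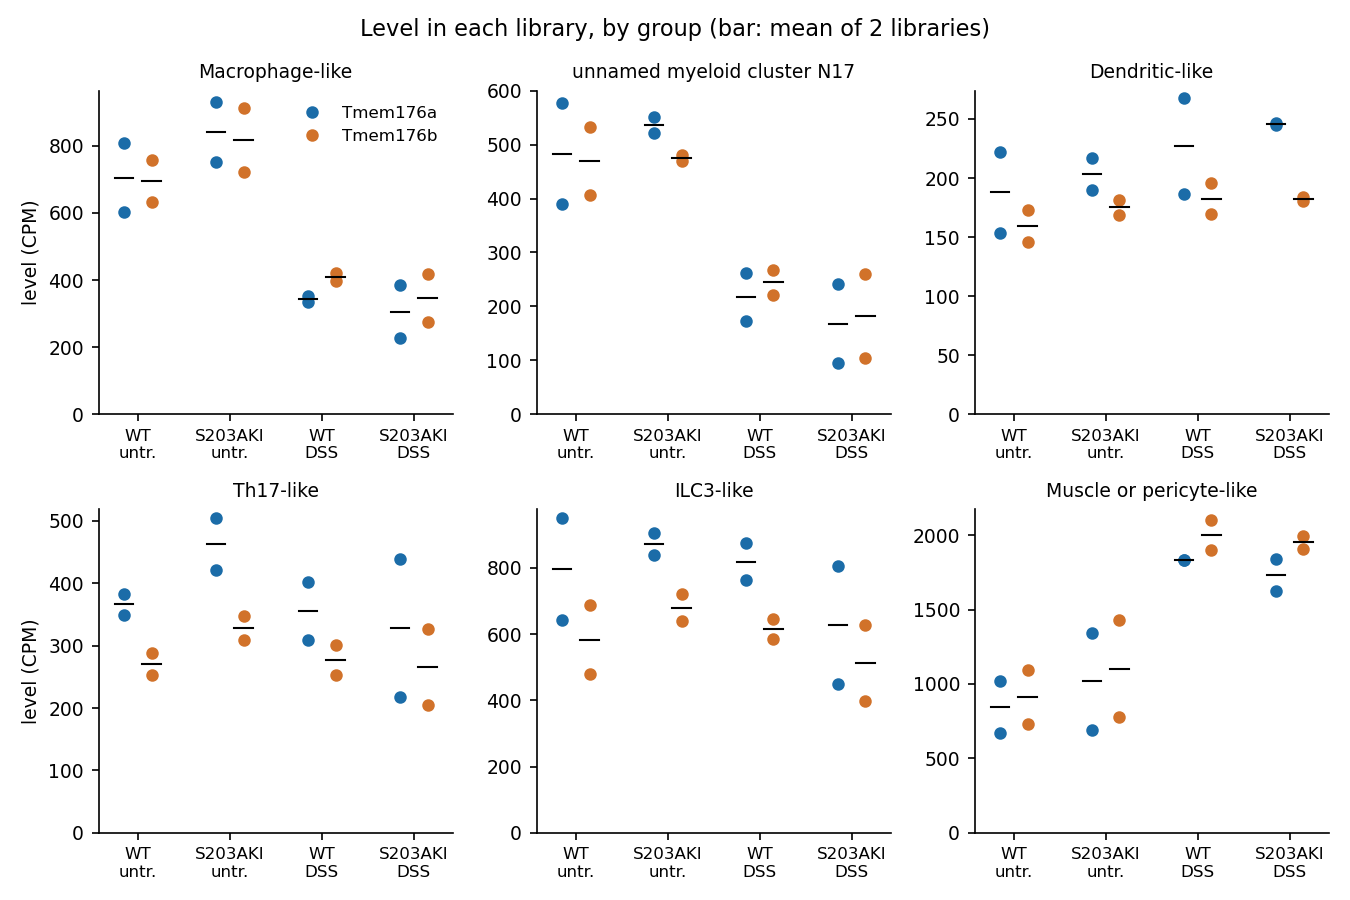
Level of Tmem176a (blue) and Tmem176b (orange) in each library (vertical axis, CPM, from 0) by group in 6 populations. Points are libraries and black bars the mean of 2 libraries. In Macrophage-like barcodes and in cluster N17 every DSS point lies under every untreated point, in Muscle or pericyte-like barcodes every DSS point lies above, and in the other panels the points overlap.

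The Macrophage-like class itself differed between treatments. The summed level of its 8 macrophage markers was 25690 to 38660 CPM in untreated libraries and 19060 to 20540 CPM after DSS, and that of 6 monocyte markers 5818 to 7402 against 2766 to 4903 CPM. Median depth was 3414 to 5128 UMIs per barcode in untreated libraries and 2177 to 3109 after DSS. At 1000 UMIs per barcode, Tmem176a was seen in 48.0% ± 5.74 of Macrophage-like barcodes with an H2-Ab1 UMI in untreated libraries and in 25.8% ± 5.39 after DSS (n = 4 each). Of those without an H2-Ab1 UMI, 253 barcodes in the DSS libraries held it in 11.5% ± 2.11, less than with H2-Ab1 in 4 of 4 libraries. The original depth in these DSS libraries had medians of 1637 to 2196 UMIs without H2-Ab1 and 2502 to 3499 with it. The untreated libraries had 10 or fewer barcodes without H2-Ab1 each. Among those with an Il1b UMI it was seen in 48.3% ± 6.14 and 25.6% ± 5.36, and among those without in 45.5% ± 5.43 and 20.7% ± 3.41. Among those with a Cd4 UMI the shares were 48.7% ± 6.53 and 24.5% ± 5.41, and among those without 46.9% ± 5.54 and 25.3% ± 5.26. For Tmem176b the shares were lower too, from 50.2% ± 4.33 to 29.03% ± 3.83 with Il1b and from 45.7% ± 6.14 to 23.1% ± 5.83 without. Read at 1000 UMIs, the share was lower after DSS in each subset that had values for both treatments. Of other cells' markers in the Macrophage-like class, the 6 plasma cell markers had the highest sums, at 5135 to 10520 CPM in untreated and 9503 to 13960 CPM in DSS libraries, which overlap. The 6 fibroblast markers (17.1 to 32.9 against 36.3 to 72.3 CPM) and the 5 T cell markers (177 to 228 against 229.9 to 353 CPM) did not overlap. The part of these marker sums in the fall was not tested.

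Cluster N17, an unnamed myeloid cluster led by Chil3, Clec4e and Il1b that mixed macrophage and monocyte markers, gave other barcodes of the same 8 libraries. It is thus not independent of the Macrophage-like class. There Tmem176a stood at 389 and 576, and 522 and 550.4 CPM in the untreated libraries, against 262.5 and 173, and 241 and 94.9 after DSS. Tmem176a fell by 1.52 ± 0.25 on the log2 scale (edgeR adjusted p = 0.00224) and Tmem176b fell by 1.26 ± 0.23 (adjusted p = 0.00336), with 17.1% of 8333 genes called in cluster N17. Both falls were called with each library left out in turn. Its macrophage markers summed to 8663 to 11550 CPM in untreated libraries and 4411 to 7296 after DSS, and its monocyte markers to 7219 to 9833 and 5158 to 6133 CPM. Its 8 dendritic cell markers summed to 144 to 213 and 85.7 to 139 CPM. Their part in the result was not tested.

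Dendritic-like barcodes, marked by Ccr7, Ccl22 and Il12b, showed no such fall. Tmem176a stood at 154 and 222, and 190.0 and 217 CPM in the untreated libraries and at 187 and 268, and 245 and 247 after DSS. Tmem176b stood at 146 and 173, and 169 and 181, against 169.6 and 195.5, and 184 and 180.2 CPM. Neither passed: the log2 changes were 0.16 ± 0.15 and 0.01 ± 0.12 (edgeR adjusted p = 0.521 and 0.952), where 14.7% of 8559 genes were called. The 5 T cell markers of Dendritic-like barcodes summed to 523 to 623 CPM in untreated libraries and 670 to 1081 after DSS. The 6 monocyte markers summed to 1384 to 1510 and 728 to 1375 CPM, and the 8 macrophage markers to 325 to 732 and 216 to 384 CPM. Their part in the result was not tested. The difference between the Macrophage-like and Dendritic-like changes was tested as the log2 ratio of the 2 levels within each library. For Tmem176a that ratio was 1.98 ± 0.22 in untreated libraries and 0.44 ± 0.45 after DSS (SD, n = 4 each, exact permutation test, two-sided, p = 0.0286, adjusted p = 0.0286, the smallest p that 4 against 4 allows).

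The same comparison separated Macrophage-like barcodes from each of the other 4 classes set beside them. These differences are of log2 CPM ratios, without the TMM factors of the edgeR fits. They need not equal the gaps between the edgeR changes given above. The Macrophage-like change of Tmem176a was lower by 0.95 log2 units than that of Th17-like, by 1.03 than that of ILC3-like, by 1.20 than that of Treg-like and by 1.48 than that of Fibroblast-like barcodes. For Tmem176b the differences were 0.85, 0.84, 1.15 and 1.24, and 1.13 against Dendritic-like barcodes. Each of these 10 exact permutation tests gave p = 0.0286 (adjusted p = 0.0286). They share the Macrophage-like values and are not independent of each other. Those values alone already separated the treatments without overlap, so reaching the smallest p adds little to the fall itself. The tests were not among the comparisons planned at the start.

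The counts that follow for Macrophage-like barcodes stand against 24.8% of all genes called, 1335 lower and 1233 higher. Of 11 tested genes for presentation on MHC class II, 9 fell and 1 rose in Macrophage-like barcodes after DSS, with a median log2 change of -1.04 against 0.01 over all genes. H2-Ab1, a chain of the class II molecule, fell by 1.04 ± 0.14 (edgeR adjusted p = 0.00114), from 8445 ± 614 to 4656 ± 767 CPM (SD, n = 4), and Cd74, the invariant chain, fell by 1.11 ± 0.17 (adjusted p = 0.00200). Of 8 tested MS4A genes, 4 fell and 0 rose (median -0.33), among them Ms4a7, a macrophage gene, which fell by 1.09 ± 0.15 (adjusted p = 0.00123). Of 12 genes of the NLRP3 inflammasome, 2 rose and 4 fell (median -0.43). Il1b, which encodes interleukin-1β, rose by 0.43 ± 0.15 (edgeR adjusted p = 0.0486), while Nlrp3 had a log2 change of 0.12 ± 0.15 (adjusted p = 0.597). These are RNA levels and not a measure of inflammasome activity. In Dendritic-like barcodes, where the members did not pass, 7 of 11 MHC class II genes fell and 1 rose (median -0.64, with 14.7% of all genes called). The list was also lower where the members did not pass in Fibroblast-like barcodes (8 of 11 fell and 1 rose, median -1.13, with 20.3% called) and in Endothelium-like barcodes (5 of 9 fell and 1 rose, median -1.13, with 4.47% called). The MS4A genes were lower in Fibroblast-like barcodes as well (4 of 9 tested fell and 0 rose, median -0.48). In Dendritic-like barcodes 1 of 5 tested MS4A genes rose and 0 fell (median -0.22).

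**Figure D3:**
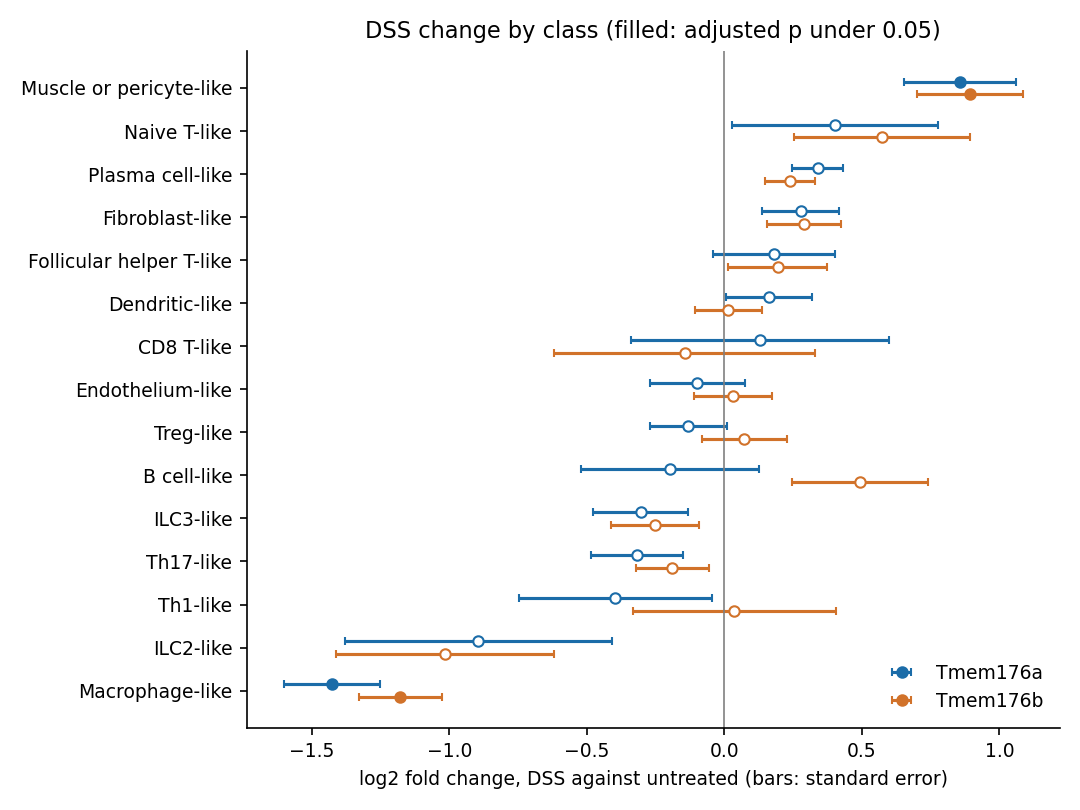
Log2 fold change with DSS (horizontal axis, averaged over genotypes, bars the standard error) of both genes in the 15 tested classes. Filled points passed an adjusted p of 0.05. The Macrophage-like points lie at -1.43 and -1.18, the Muscle or pericyte-like points at 0.86 and 0.89, and all other points are open.

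Of the 15 classes tested for DSS, 1 showed a fall of both genes and 1 a rise, and 13 passed for neither gene. The rise was in Muscle or pericyte-like barcodes, led by Myh11, Actg2 and Des, the contractile and filament genes of smooth muscle. Tmem176a stood at 668 and 1020.0 CPM in WT_untreated and 692 and 1343 in S203AKI_untreated, against 1830.0 and 1835 in WT_DSS and 1841 and 1624 in S203AKI_DSS. Tmem176b stood at 731 and 1096, and 778 and 1428 CPM, against 1900.0 and 2104, and 1907 and 1996. Every DSS library lay above every untreated one. Tmem176a rose by 0.86 ± 0.20 on the log2 scale (edgeR adjusted p = 0.0424) and Tmem176b by 0.89 ± 0.19 (adjusted p = 0.0313), where 3.87% of 8886 genes were called. Of the 8 fits that each left out 1 library, 2 kept the call for each gene, and the others gave an adjusted p of up to 0.183 and 0.168. The 5 muscle or pericyte markers of the class summed to 24130 to 30710 CPM in untreated libraries and 13490 to 22110 CPM after DSS, and the 6 fibroblast markers to 4109 to 5747 and 5129 to 7396 CPM. Their part in the rise was not tested.

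Fibroblast-like barcodes held 4 clusters whose levels differed by several fold. Pooled, they did not pass after DSS: Tmem176a stood at 933 and 1361, and 1316 and 1589 CPM in untreated libraries and at 1627 and 1568, and 1554 and 1240.0 after DSS, a log2 change of 0.28 ± 0.14 (edgeR adjusted p = 0.184), and Tmem176b had one of 0.29 ± 0.13 (adjusted p = 0.156), with 20.3% of 13628 genes called. By cluster, the mean of Tmem176a was 1852 ± 379 CPM in untreated and 2754 ± 405 after DSS in cluster N8 (led by Clec3b, Dcn and Adamdec1), 365 ± 128 and 559 ± 119 in cluster N9 (Lum, Dcn, Dpt), 1117 ± 249 and 1940 ± 469 in cluster N10 (Cxcl13, Igfbp5, Il11), and 809 ± 186 and 1350 ± 141 in cluster N11 (Ogn, Pdgfra, Rbp4). Thus each cluster had the higher mean after DSS, and the pooled change was smaller than that of any of them. Cluster N8, the richest, supplied 3592 of 6838 untreated barcodes and 366 of 3300 after DSS.

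Of the 4, cluster N10 passed, with rises of 0.72 ± 0.17 and 0.76 ± 0.16 (edgeR adjusted p = 0.00960 and 0.00634, with 18.9% called in cluster N10). Its untreated barcodes carried 7236 to 15120 CPM of the 8 macrophage markers, against 1434 to 1959 after DSS, and 7333 to 8302 against 10110 to 16410 CPM of the fibroblast markers. The 6 plasma cell markers of cluster N10 summed to 4066 to 9519 CPM in untreated libraries and 11140 to 25440 after DSS, and the 6 monocyte markers to 3979 to 6228 and 1705 to 1923 CPM. The part of these sums in the rise was not tested. Without S203AKI_untreated replicate 1 the adjusted p of Tmem176a in cluster N10 was 0.0609. Clusters N8, N9 and N11 gave log2 changes of 0.48, 0.66 and 0.70 for Tmem176a (adjusted p = 0.125, 0.0537 and 0.0691) and of 0.47, 0.51 and 0.54 for Tmem176b, none past the threshold, with 1.83%, 16.6% and 1.32% called.

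Endothelium-like barcodes held 2 clusters. The class as a whole had log2 changes of -0.10 ± 0.17 and 0.03 ± 0.14 (edgeR adjusted p = 0.782 and 0.918, with 4.47% called). Its smaller cluster N16, led by Ccl21a, Lyve1 and Mmrn1, genes of lymphatic vessels, held Tmem176a at 103 and 172, and 90.8 and 119 CPM in untreated libraries, against 283.5 and 272, and 302.1 and 207.5 after DSS. Tmem176b stood at 124 and 163, and 105 and 129, against 204 and 306, and 341 and 311 CPM. In cluster N16 both rose, by 1.14 ± 0.20 and 1.14 ± 0.18 (adjusted p = 0.0138 and 0.00788, with 1.60% of 7446 genes called). Without S203AKI_untreated replicate 1 the adjusted p was 0.108 and 0.0780. The macrophage markers of cluster N16 summed to 758 to 1557 CPM in untreated libraries and 239.9 to 1033 after DSS, and its fibroblast markers overlapped (513 to 765 and 357 to 910 CPM). Cluster N12 was led by Fabp4 and Plvap, genes of blood vessels, and Hbb-bs, a haemoglobin gene, followed by Flt1 and Rgs5. Rgs5 belongs to the muscle or pericyte markers, whose mean log2 enrichment was 4.79 there, against 5.79 for the endothelium markers. Cluster N12 had log2 changes of -0.30 ± 0.17 and -0.17 ± 0.15 (edgeR adjusted p = 0.326 and 0.548, with 4.94% called). The part of pericyte RNA in them was not tested.

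**Figure D4:**
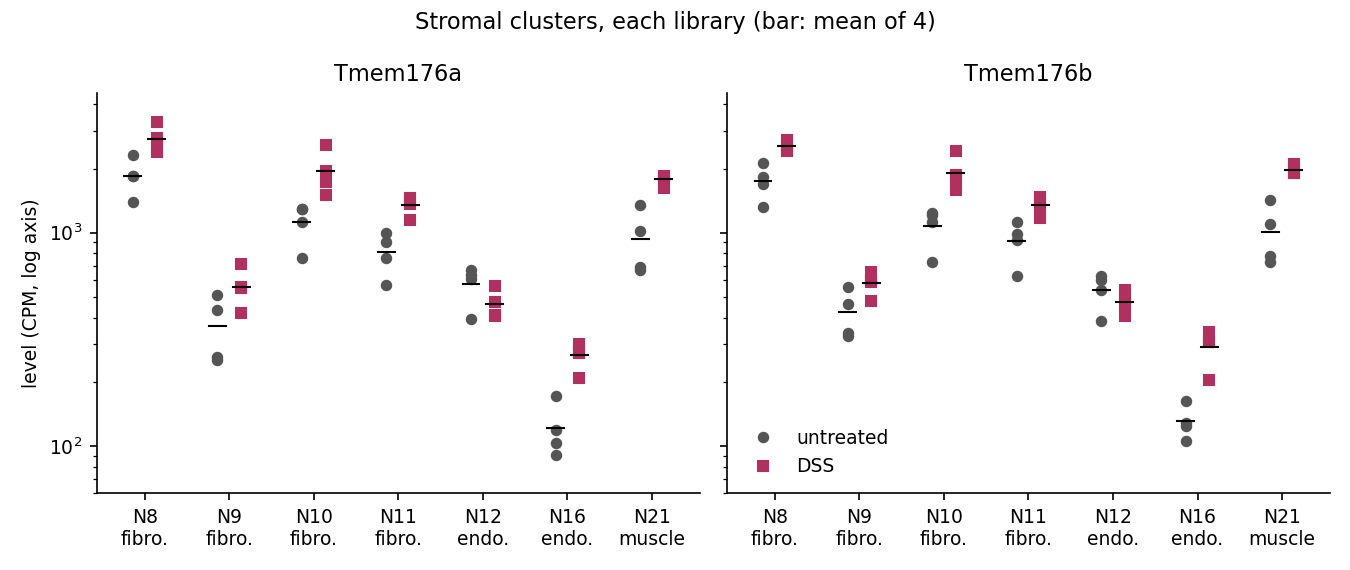
Level (vertical axis, CPM, log scale) of Tmem176a (left) and Tmem176b (right) in each library for the 4 fibroblast clusters, the 2 endothelial clusters and the muscle or pericyte cluster. Grey circles are untreated and red squares DSS libraries, and bars the mean of 4. DSS points lie above all untreated points in N8, N10, N11, N16 and N21 and overlap them in N9 and N12.

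In all, 19 clusters were fitted on their own, and 7 of 38 member tests passed. Besides clusters N10, N16 and N17, the seventh was Tmem176b in cluster L1, a Treg-like cluster with Il1rl1 and Klrg1, which rose by 1.11 ± 0.33 (edgeR adjusted p = 0.0411, with 8.24% called) from 13.9 ± 5.34 to 30.5 ± 9.14 CPM (SD, n = 4, groups overlapping). These levels are in the range of the classes read as background, where Tmem176b went from 20.6 ± 3.54 to 29.5 ± 10.7 CPM in B cell-like and from 9.26 ± 3.16 to 15.4 ± 5.09 CPM in Naive T-like barcodes. The part of this background in the L1 value was not tested. That call was kept in 2 of the 8 fits that left out 1 library, the others giving an adjusted p of up to 0.168. The other lymphoid and plasma clusters gave no call of either gene, against 12.6% and 6.95% of genes called in the Th17-like clusters L12 and L5, 15.5% and 5.25% in the Treg-like clusters L0 and L2, and 2.94% and 4.07% in the Th1-like clusters L4 and L8. In the unnamed clusters L3, L6, L9, L10 and N19 the shares were 7.63%, 13.9%, 12.9%, 5.85% and 0.392%. P-values were adjusted over genes within a cluster and not over clusters.

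Plasma cells, which secrete antibody, came near the threshold. Tmem176a in Plasma cell-like barcodes was 265 to 313 CPM in the 4 untreated libraries and 330.1 to 395 in the 4 DSS libraries, without overlap, a log2 change of 0.34 ± 0.09 (edgeR adjusted p = 0.0534, with 6.47% of genes called). It passed in 2 of 14 alternatives, with no filter on low counts (adjusted p = 0.0464) and without the highest doublet scores (0.0434), and in 0 of the 8 fits that left out 1 library (0.0707 to 0.163). Tmem176b was 275 to 340 against 354 to 397 CPM, a change of 0.24 ± 0.09 (adjusted p = 0.132). The 6 plasma cell markers of Plasma cell-like barcodes summed to 160400 to 172100 CPM in untreated libraries and 199900 to 233100 after DSS, also without overlap, and their part in these values was not tested. ILC2-like barcodes, with 428 in all, had changes of -0.89 ± 0.48 and -1.02 ± 0.40 (adjusted p = 0.292 and 0.135, with 5.93% called). In the B cell-like, CD8 T-like, Follicular helper T-like, Naive T-like and Th1-like classes the adjusted p was 0.174 or more, where 15.3%, 5.35%, 15.8%, 15.3% and 16.4% of genes were called. With no filter on low counts, Tmem176a in Th1-like barcodes had a log2 change of -0.41 (edgeR adjusted p = 0.0235).

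The balance between the genes differed between classes. It is given as UMIs of Tmem176a per UMI of Tmem176b, a ratio whose size also depends on how well each 3′ end is captured, so nothing is read from its distance to 1. The ratio was 1.06 to 1.45 in Th17-like, 1.13 to 1.49 in ILC3-like and 1.05 to 1.37 in Dendritic-like barcodes, and in all 8 libraries each of these classes had a higher ratio than Macrophage-like barcodes. The Th17-like and ILC3-like ratios were also above that of Fibroblast-like barcodes (0.938 to 1.12) in 8 of 8 libraries, and the Dendritic-like ratio in 7 of 8. Muscle or pericyte-like barcodes had ratios of 0.813 to 0.965. In Macrophage-like barcodes it was 1.02 ± 0.0482 in untreated libraries (SD, n = 4) and 0.854 ± 0.0432 after DSS, without overlap (0.952 to 1.06 against 0.818 to 0.916, exact permutation test, two-sided, p = 0.0286, adjusted over 6 classes p = 0.171). In Th17-like barcodes it was 1.38 ± 0.0502 and 1.24 ± 0.134 (exact permutation p = 0.0857, adjusted p = 0.257), with S203AKI_DSS replicate 2 lowest.

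**Figure D5:**
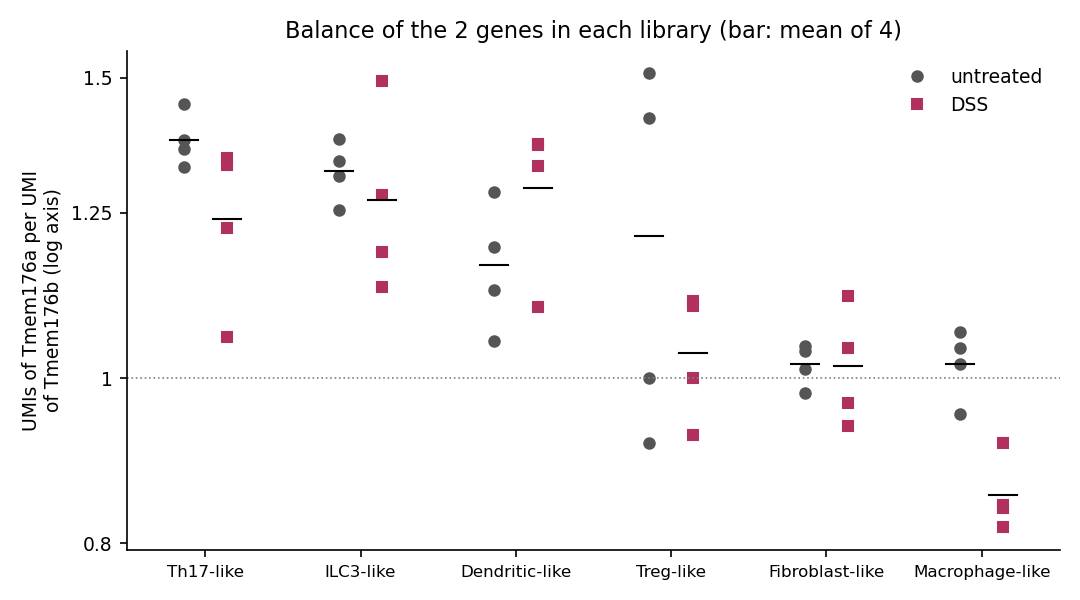
UMIs of Tmem176a per UMI of Tmem176b (vertical axis, log scale) in each library for 6 classes. Grey circles are untreated libraries, red squares DSS libraries and bars the mean of 4. In each library the Th17-like, ILC3-like and Dendritic-like points lie above the Macrophage-like point, and all DSS points of Macrophage-like barcodes lie below their untreated points.

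Across the 18 classes, each member was the gene whose log2 level was most like the other's, at Pearson r = 0.996 among 10118 genes compared (a description over 18 classes that share libraries). The next were Gstm5, a glutathione transferase, at r = 0.865 with Tmem176a and 0.860 with Tmem176b, Rpn2, a subunit of the complex that adds sugar chains to new proteins, at 0.860 and 0.869, Snx21, a sorting nexin, at 0.860 and 0.860, and Gas2l1 and Tmco1 at 0.844 to 0.856.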

How the data were processed

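Per the labels' protocols, cells were released with collagenase, DNase and dispase, passed through Percoll, enriched for CD4+ T cells and made into 10x Chromium 3′ libraries. Per the submitters' processing notes, Cell Ranger 3.1.0, Seurat 4.0.1 and the build mm10 were used. The authors deposited raw UMI counts per gene and barcode, 1 table per library, with a list of 31053 symbols in row order, which matched the identifiers of 1 table for 98.5% of 30934 found. An authors' barcode list (27420 barcodes) served as an alternative. No column of another sample was used.

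Barcodes with at least 400 genes and under 20% mitochondrial UMIs were kept, clustered with scanpy 1.11.5 and Leiden (lymphoid barcodes again on their own), and named where the mean log2 enrichment of a marker list was at least 1 and 0.5 above the next. Of 38 clusters, 12 stayed unnamed. Doublets were not removed: Scrublet called 0 barcodes, which is not read as a lack of doublets. The alternative without the highest doublet scores used the scores of those same runs. Counts were summed per library and class and tested with edgeR 4.0.16 (quasi-likelihood, TMM factors, filterByExpr, all 4 groups in 1 fit, adjusted over all genes), with DESeq2 1.42.0 as an alternative. R was 4.3.3. Classes entered with at least 20 barcodes in all 8 libraries. Named genes were the 5 most alike per member and, from each list, at most 4 with the highest mean level. On simulated counts for the Th17-like comparison (8761 genes), 31 of 47 genes changed by -1 and 45 of 50 changed by 1 on the log2 scale were called, and 16 of 8564 unchanged genes. Members, lists, the Fibroblast-like class, the added classes and the single clusters were chosen with earlier results of these data known. Intervals and floors cover counting and fit error only. Replicates are biological per the series text, numbered in accession order. One gene and the results that need it are not reported here.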

Additional observations from a re-analysis of the deposited data

Results flagged for a closer look

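Both genes were found outside the comparisons, in the 3952 barcodes that failed the limits on genes or mitochondrial reads. Over all 8 libraries those barcodes held 232 CPM of Tmem176a and 226 CPM of Tmem176b, from 138 to 273 and from 78.0 to 290 CPM per library. There are no control samples for such barcodes, and the values stand above the limit that a count of 0 allows. They lie above the levels in Naive T-like and B cell-like barcodes and under those in Fibroblast-like barcodes. The values over all 8 libraries also lie under the means of all passing barcodes. Those means were 526 CPM of Tmem176a in untreated and 402 in DSS libraries, and 508 and 402 CPM of Tmem176b.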

How the results depend on the processing

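No paired analysis was run, because no label documents a pairing. No number in the sample titles is shared between groups, and no label ties neighbouring numbers to a litter or day. The replicate numbers used here only name libraries. Fits that leave a group with 1 library assume that it varies like the other groups. Removal of called doublets was not run since Scrublet called 0 barcodes, and the coarser clustering gave no Dendritic-like class. Leaving out the highest doublet scores or marker-bearing barcodes, and fitting further classes and single clusters, were chosen after seeing the data. The falls in Macrophage-like barcodes passed in every fit without 1 library (-1.66 to -1.25 for Tmem176a and -1.36 to -1.03 for Tmem176b) and under each other alternative run. The rises in Muscle or pericyte-like barcodes spanned 0.66 to 1.11 and 0.71 to 1.12. Without a filter on low counts the DSS change of Tmem176a within S203AKI in Th17-like barcodes was -0.51 (edgeR adjusted p = 0.0291), past the threshold, and the cause was not tested. Log2 ranges over the fits without 1 library, for results whose direction or call changed, follow by comparison. For DSS they were Th17-like -0.63 to -0.12 (Tmem176a) and -0.39 to -0.051 (Tmem176b), Treg-like -0.28 to 0.049 (Tmem176a) and -0.092 to 0.28 (Tmem176b), Dendritic-like -0.055 to 0.084 (Tmem176b), B cell-like -1.05 to 0.22 (Tmem176a) and -0.037 to 0.68 (Tmem176b), CD8 T-like -0.21 to 0.64 (Tmem176a) and -0.52 to 0.32 (Tmem176b), Endothelium-like -0.25 to 0.099 (Tmem176a) and -0.078 to 0.16 (Tmem176b), Follicular helper T-like -0.12 to 0.39 (Tmem176a), Th1-like -0.75 to 0.11 (Tmem176a) and -0.33 to 0.62 (Tmem176b), Fibroblast-like -0.054 to 0.031 (ratio). For S203AKI against WT they were Th17-like -0.23 to 0.28 (Tmem176a) and -0.12 to 0.21 (Tmem176b), Treg-like -0.27 to 0.059 (Tmem176a) and -0.012 to 0.36 (Tmem176b), ILC3-like -0.35 to 0.080 (Tmem176a) and -0.18 to 0.15 (Tmem176b), Macrophage-like -0.22 to 0.20 (Tmem176a) and -0.21 to 0.12 (Tmem176b), Dendritic-like -0.042 to 0.25 (Tmem176a) and -0.019 to 0.12 (Tmem176b), Fibroblast-like -0.10 to 0.17 (Tmem176a) and -0.046 to 0.20 (Tmem176b). For DSS within WT they were Th17-like -0.32 to 0.085 (Tmem176a) and -0.18 to 0.10 (Tmem176b). For DSS within S203AKI they were Th17-like -1.18 to -0.15 (Tmem176a) and -0.76 to -0.081 (Tmem176b). For S203AKI against WT after DSS they were Th17-like -0.78 to 0.25 (Tmem176a) and -0.49 to 0.18 (Tmem176b). Other reversals were of changes that did not pass. With DESeq2 the log2 values were -0.0028 (Tmem176b, S203AKI against WT, ILC3-like). With RLE factors the log2 values were -0.0030 (Tmem176b, S203AKI against WT, ILC3-like). With coarser clustering the log2 values were 0.059 (Tmem176b, DSS within WT, Th17-like), 0.034 (Tmem176a, DSS, Treg-like), 0.0027 (Tmem176a, S203AKI against WT, Treg-like), -0.011 (Tmem176b, S203AKI against WT, ILC3-like), -0.060 (Tmem176a, DSS, CD8 T-like), 0.10 (Tmem176b, DSS, CD8 T-like). On the authors' barcode list the log2 values were 0.00079 (Tmem176b, DSS within WT, Th17-like), -0.18 (Tmem176b, DSS, Treg-like), 0.060 (Tmem176a, S203AKI against WT, ILC3-like), 0.014 (Tmem176b, S203AKI against WT, Macrophage-like), -0.0037 (Tmem176a, DSS, Dendritic-like), -0.032 (Tmem176a, DSS, Fibroblast-like), -0.079 (Tmem176b, DSS, Th1-like), 0.047 (ratio, DSS, Treg-like), 0.0051 (ratio, DSS, ILC3-like). Without marker-bearing barcodes the log2 values were 0.065 (Tmem176b, DSS within WT, Th17-like), 0.042 (Tmem176a, DSS, Treg-like), -0.072 (Tmem176b, S203AKI against WT, ILC3-like), -0.11 (Tmem176b, DSS, Follicular helper T-like). Without the highest doublet scores the log2 values were -0.034 (Tmem176b, DSS, Treg-like), -0.019 (Tmem176a, S203AKI against WT, Macrophage-like), -0.026 (Tmem176b, DSS, Th1-like), 0.013 (ratio, DSS, Fibroblast-like). With coarser clustering mean levels (CPM of Tmem176a and Tmem176b) were 40.1 and 34.5 in CD8 T-like, 24.7 and 25.5 in Follicular helper T-like, 18.0 and 19.3 in Naive T-like, 51.3 and 44.2 in Treg-like. On the authors' barcode list mean levels (CPM of Tmem176a and Tmem176b) were 1108 and 1080.0 in Fibroblast-like. Without the highest doublet scores mean levels (CPM of Tmem176a and Tmem176b) were 8.79 and 12.1 in B cell-like. Unthinned, more UMIs being read per barcode, the shares with Tmem176a, Tmem176b and both were 46.7%, 40.9%, 24.7% in Th17-like, 80.4%, 76.4%, 66.0% in ILC3-like, 65.8%, 69.1%, 54.4% in Macrophage-like, 90.3%, 91.2%, 86.3% in Fibroblast-like, 2.05%, 2.28%, 0.228% in Naive T-like, 3.31%, 4.06%, 1.12% in B cell-like. Thinned to 2000 UMIs, more UMIs being read per barcode, the shares with Tmem176a, Tmem176b and both were 47.8%, 40.9%, 23.9% in Th17-like, 73.1%, 68.0%, 53.9% in ILC3-like, 58.0%, 61.4%, 40.8% in Macrophage-like, 79.4%, 81.5%, 69.9% in Fibroblast-like, 1.76%, 2.30% in Naive T-like, 4.03%, 5.72%, 1.36% in B cell-like.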
